A study of Equus caballus with 4 samples.

Results

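The genes of mevalonate and cholesterol synthesis were examined in differentiating equine satellite cells (ESC) treated with gamma-oryzanol (GO) and hydrogen peroxide (H2O2). They were the 8 genes HMGCS1, MVK, IDI1, FDPS, FDFT1, SQLE, LSS and INSIG1, and their probes were taken wherever the array gave exactly that gene name. This found 10 probes of 6 genes among the 43603 gene probes of the array. IDI1 and FDPS had no probe under their own names. A probe for IDI1 was therefore found through the probe description and a probe for FDPS through its RefSeq accession, so that 12 probes covered all 8 genes.

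RNA came from ESC of m. semitendinosus on day 3 of differentiation. Treated cells were kept for 24 h with 0.125 µM GO, a rice bran product made of ferulic acid esters of sterols or triterpene alcohols. H2O2 at 3 mM was present during the final 1 h. The control group had no GO, while the methods gave both groups the DMSO vehicle. Whether the controls had H2O2 is not stated in the labels, whereas the study describes a control group that was given H2O2 as well. The labels number 4 biological replicates of the treated cells but end every control entry with the same replicate number 1, whereas the design text counts 4 controls. The cells were of horse muscle taken from young stallions, and the methods state that the best primary line was carried forward, so the replicates may all be cultures of 1 line and their spread may be technical. Each of the 4 arrays, all on 1 slide, held treated RNA in the red channel and control RNA in the green channel. No array had the dyes swapped, and for every probe the dye and the treatment cannot be told apart.

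Mevalonate synthesis builds mevalonate from acetyl units and turns it into isopentenyl diphosphate, the building block of all isoprenoids. Farnesyl diphosphate, built from it, is the branch point between sterols and the lipids that anchor prenylated proteins or extend ubiquinone and dolichol. Most enzyme genes of the pathway are targets of the transcription factor SREBP-2, which leaves the endoplasmic reticulum with its escort SCAP when sterols are low and is held back by INSIG proteins when they are high. Muscle cells make cholesterol for their own membranes and also take it up from outside.

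The probes that the results turn on are printed below, 5′ to 3′ as in the array files, with positions in EquCab1, the build of the file headers. MVK and IDI1 are shown because they passed the test. FDPS and RUSC1 are shown because the array description and the accession disagree on which of these probes is FDPS. The 4 INSIG1 probes are shown because they share 50 bases, written in capitals, and so measure the same stretch of the transcript.
MVK, chr8:11441389-11445247, minus strand: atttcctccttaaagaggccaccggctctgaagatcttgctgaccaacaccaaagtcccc
IDI1, chr29:31630322-31630381, plus strand: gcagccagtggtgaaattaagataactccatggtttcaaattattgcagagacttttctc
FDPS, chrUn:83875149-83875312, plus strand: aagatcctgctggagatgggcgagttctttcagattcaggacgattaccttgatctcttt
RUSC1, described on the array as FDPS, chrUn:83885749-83885808, plus strand: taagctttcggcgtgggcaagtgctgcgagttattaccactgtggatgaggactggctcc
INSIG1 probe 1, chr4:95066133-95066192, plus strand: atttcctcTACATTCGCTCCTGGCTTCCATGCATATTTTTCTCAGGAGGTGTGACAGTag
INSIG1 probe 2, chr4:95066132-95066191, plus strand: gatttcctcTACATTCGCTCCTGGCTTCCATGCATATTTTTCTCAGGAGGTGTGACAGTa
INSIG1 probe 3, chr4:95066141-95066200, plus strand: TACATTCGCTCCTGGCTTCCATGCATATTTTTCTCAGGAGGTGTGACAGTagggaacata
INSIG1 probe 4, chr4:95066131-95066190, plus strand: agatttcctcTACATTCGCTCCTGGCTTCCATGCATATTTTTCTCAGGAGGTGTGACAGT
The MVK and FDPS probes have 60 bases but span 3859 and 164 bases of the genome, so they cross at least 1 intron. The other printed probes each lie in 1 unbroken stretch. No exon or UTR was looked up, because an annotation of EquCab1 was not used here.

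Over the whole array, 24229 probes were well above background on all 4 arrays in at least 1 channel and were tested with limma. With a threshold of 0.05 on the adjusted p, 4137 passed (17.1%), of which 2299 were higher with GO and H2O2 (9.49%) and 1838 were lower (7.59%). The log2 ratios of the arrays correlated across probes with Pearson's r from 0.174 (replicates 2 and 3) to 0.697 (replicates 3 and 4), and replicate 2 had its lowest values with replicates 3 and 4. Leaving out replicate 1, 3 or 4 reduced the count to 2, 38 or 0 probes, and leaving out replicate 2 gave 3898. With 4 arrays, precision is limited by their number.

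IDI1 and MVK fell, and none of the 6 tested genes rose. Of the 10 member probes tested (8 under their own names), 2 passed the test, both lower (1 under its own name), against 7.59% of all tested probes that passed in this direction. The other tested enzyme genes, FDPS, FDFT1 and SQLE, had mean ratios below 0 that did not pass. INSIG1 lay at 0 within its error, and HMGCS1 and LSS were too dim to be tested. The treated channel was below the control channel on all 4 arrays for 4 of the 10 probes (MVK, IDI1, FDPS and FDFT1), against 21.2% of all tested probes, and above it on all 4 for 0 of 10, against 22.6%. The channels did not overlap at all for MVK, IDI1 and FDFT1, with treated below control, a pattern of 6.72% of tested probes, while no member probe had treated above control without overlap (7.44% of tested probes).

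**Figure D1:**
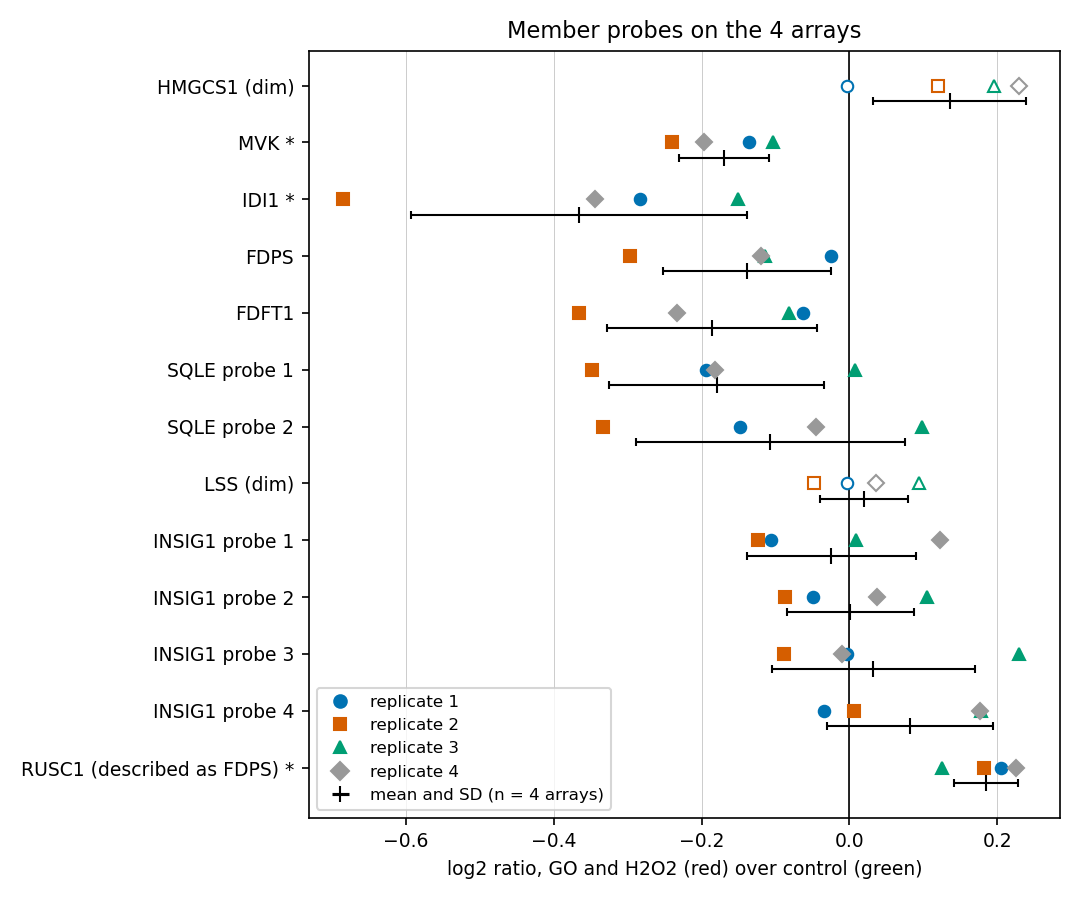
Log2 ratio of treated over control on each of the 4 arrays (x axis) for every probe of the 8 genes and for the probe described as FDPS that carries an accession of RUSC1 (rows). Symbols are replicates, black bars are the mean and SD of 4 arrays, open symbols are probes too dim to test, and an asterisk marks an adjusted p under 0.05. IDI1 on replicate 2 is the lowest point at -0.69, and replicate 2 is the leftmost symbol for MVK, IDI1, FDPS, FDFT1 and both SQLE probes.

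HMGCS1, which makes 3-hydroxy-3-methylglutaryl-CoA, was near the limit of detection. Its scanned red signals were 81.8, 76.6, 77.3 and 84.1 on replicates 1 to 4, and its green signals were 87.7, 87.4, 84.7 and 103. It was well above background on 1 array in the treated channel and on 0 in the control channel, and no test was made. The log2 ratios of -0.0028, 0.12, 0.20 and 0.23 are therefore ratios of signals close to background. With the authors' processed signals the mean ratio was 0.50 in place of 0.14.

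MVK, mevalonate kinase, phosphorylates mevalonate. Its scanned red signals were 165, 141, 132 and 131, against green signals of 189, 177, 154 and 172. On the normalised log2 scale the treated channel read 7.37, 7.29, 7.37 and 7.30 and the control channel 7.50, 7.53, 7.48 and 7.49. All 4 treated values lay under all 4 control values. The log2 ratios were -0.14, -0.24, -0.10 and -0.20, a mean of -0.17 ± 0.06 (SD, n = 4) or 1.12-fold lower, with a limma adjusted p of 0.0404 and a 95% interval from -0.27 to -0.070. MVK was dim, and its ratio was -0.32 with the authors' processed signals. The ratio stayed below 0 in all 19 alternatives but passed in 11, and in none of the 4 that left out an array (adjusted p from 0.0761 to 0.136).

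IDI1, isopentenyl diphosphate isomerase, turns isopentenyl diphosphate into the dimethylallyl diphosphate that starts each chain. Scanned red signals were 933, 701, 760 and 765, against green signals of 1014, 929, 708 and 900. Normalised log2 values were 9.52, 9.29, 9.75 and 9.61 in the treated channel and 9.81, 9.98, 9.90 and 9.96 in the control channel, again without overlap. Control values kept within a narrow range, and the treated value of replicate 2 lay furthest down. Log2 ratios were -0.28, -0.69, -0.15 and -0.34, with a mean of -0.37 ± 0.23 (SD, n = 4), or 1.29-fold lower. The limma adjusted p was 0.0352 and the 95% interval ran from -0.57 to -0.16. Without replicate 2 the mean was -0.26 and the adjusted p 0.0314, while leaving out replicate 1, 3 or 4 gave adjusted p of 0.109, 0.0616 and 0.119. The probe name is an Ensembl transcript, and no RefSeq accession tied it to IDI1.

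FDPS, farnesyl diphosphate synthase, makes the branch point intermediate. Its accession-matched probe was bright, with scanned red signals of 8281, 6243, 5107 and 5117 and green signals of 6859, 5796, 4487 and 4809. After normalisation the treated channel read 12.56, 12.35, 12.46 and 12.31 and the control channel 12.58, 12.65, 12.57 and 12.43, so the groups overlapped although treated was lower within each array. Log2 ratios of -0.025, -0.30, -0.11 and -0.12 gave a mean of -0.14 ± 0.11 (SD, n = 4, limma adjusted p 0.110, 95% interval -0.26 to -0.013), which did not pass. Without replicate 2 the mean was -0.086, and with the correction for row and column -0.083.

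The array describes another probe as farnesyl diphosphate synthase. Its accession belongs to RUSC1 in the horse RefSeq gene table (assembly TB-T2T), where RUSC1 and FDPS are neighbours. Scanned red signals were 651, 565, 468 and 476, against green signals of 507, 429, 378 and 394. Log2 ratios were 0.21, 0.18, 0.13 and 0.22, and the channels did not overlap, with treated above control. The mean of 0.18 ± 0.04 (SD, n = 4) had a limma adjusted p of 0.0298, so the direction read for FDPS turned on which of the probes stood for it. The RUSC1 probe passed in 12 of 19 alternatives and not with a correction for GC content (0.13, adjusted p 0.0607).

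**Figure D2:**
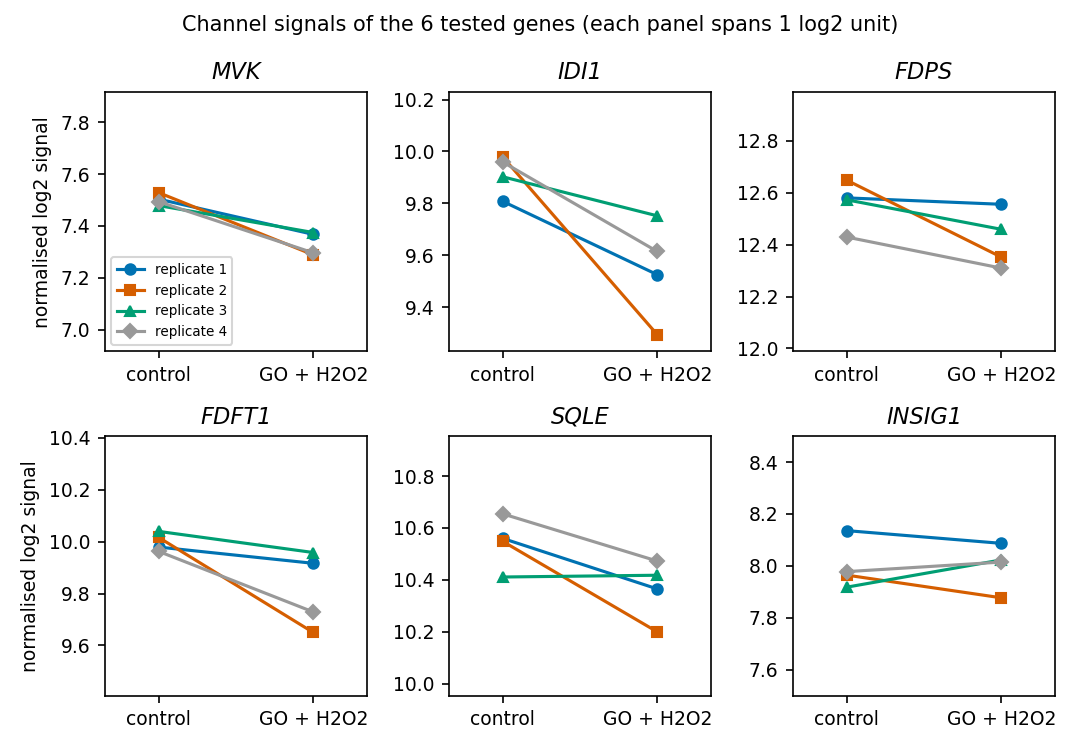
Normalised log2 signal (y axis, each panel spanning 1 log2 unit) of the control and the treated channel for the brightest tested probe of MVK, IDI1, FDPS, FDFT1, SQLE and INSIG1. Each line joins the channels of 1 array. The lines slope down on all 4 arrays for MVK, IDI1, FDPS and FDFT1, and the steepest line is that of replicate 2 in IDI1, from 9.98 to 9.29.

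FDFT1, squalene synthase, commits farnesyl diphosphate to sterols (chr2:45773213-45773272). Scanned red signals were 1250, 903, 883 and 837, and green signals were 1147, 959, 778 and 897. The treated channel read 9.92, 9.65, 9.96 and 9.73 on the normalised log2 scale, below the control values of 9.98, 10.02, 10.04 and 9.96 on every array. Treated values of replicates 1 and 3 lay just under the lowest control value, and those of replicates 2 and 4 well below it. Log2 ratios of -0.063, -0.37, -0.081 and -0.23 averaged -0.19 ± 0.14 (SD, n = 4, limma adjusted p 0.0750, 95% interval -0.33 to -0.043) and did not pass in the main fit or in any of the 19 alternatives.

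SQLE, squalene epoxidase, carries out the first oxygenation of the sterol branch. Its probes lie end to end at chr9:62311568-62311627 and chr9:62311628-62311687 without sharing bases. The brighter probe had scanned red signals of 1729, 1346, 1213 and 1415 and green signals of 1708, 1368, 987 and 1438. It gave log2 ratios of -0.19, -0.35, 0.0068 and -0.18 (mean -0.18 ± 0.15, SD, n = 4, limma adjusted p 0.0841). The other probe had red signals of 1638, 1260, 1281 and 1504 and green signals of 1585, 1283, 997 and 1403, with log2 ratios of -0.15, -0.33, 0.098 and -0.045 (mean -0.11 ± 0.18, SD, n = 4, adjusted p 0.313). Channels overlapped for both probes, and both had their lowest ratio on replicate 2 and their highest on replicate 3. On 1 array the 2 probes differed by 0.016 to 0.14, less than the spread between arrays. Without replicate 2 the means were -0.12 and -0.032.

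LSS, lanosterol synthase, closes the sterol rings (chr26:598081-598140). Like HMGCS1 it was well above background on 1 array in the treated channel and on 0 in the control channel. Scanned red signals were 74.1, 76.7, 73.6 and 90.4, and green signals were 92.2, 103, 96.2 and 120. Log2 ratios of -0.0034, -0.048, 0.094 and 0.035 averaged 0.020 ± 0.060 (SD, n = 4). No test was made, and the processed signals gave a mean of -0.17.

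INSIG1 anchors the SREBP-2 escort in the endoplasmic reticulum and is itself induced when sterols are low. Probe 2, the brightest of its 4 probes, had scanned red signals of 306, 242, 220 and 234 and green signals of 297, 241, 197 and 245. Its log2 ratios were -0.049, -0.087, 0.10 and 0.037, around a mean of 0.0013 ± 0.086 (SD, n = 4, limma adjusted p 0.986, 95% interval -0.11 to 0.11). The interval of this probe leaves room for a change of up to 0.11 on the log2 scale in either direction. The 95% intervals of the other probes reached further, from -0.15 to 0.10 (probe 1), -0.11 to 0.17 (probe 3) and -0.043 to 0.21 (probe 4).

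The other INSIG1 probes differed in sign around 0. Probe 1, with scanned red signals of 259, 212, 188 and 216 and green signals of 268, 221, 185 and 211, gave log2 ratios of -0.11, -0.12, 0.0086 and 0.12 (mean -0.025, adjusted p 0.765). Probe 3, with red signals of 265, 196, 194 and 194 and green signals of 246, 203, 167 and 210, gave -0.0032, -0.089, 0.23 and -0.0095 (mean 0.032, adjusted p 0.722). Probe 4, with red signals of 218, 184, 184 and 222 and green signals of 217, 174, 153 and 208, gave -0.035, 0.0058, 0.18 and 0.18 (mean 0.082, adjusted p 0.297). The probes read nearly the same bases, yet on 1 array they differed by 0.10 to 0.22.

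The members shared a pattern across arrays. They were chosen with earlier results of these data known, so the pattern is not independent of the choice. Replicate 2 held the lowest ratio for all 6 tested genes (brightest probe each), against 29.8% of the 13691 gene names tested. For INSIG1 this rested on probe 2, with -0.087 on replicate 2 and -0.049 on replicate 1. INSIG1 probes 1 and 3 were also lowest on replicate 2, but probe 4 was lowest on replicate 1 (-0.035, against 0.0058). These probes differed by 0.10 to 0.22 on 1 array, so the place of INSIG1 is uncertain. Among the other enzymes of the pathway, replicate 2 held the lowest ratio for 10 of 15. Median ratios of the 6 genes were -0.099, -0.32, -0.093 and -0.19 on replicates 1 to 4. The treated channel was at its lowest on replicate 2 for 5 of the 6 genes and the control channel at its highest there for 3 of 6. The shares of all gene names with these channel patterns were not counted, so the channel counts cannot be read as particular to these genes. These counts are descriptions noticed in the data, and the 21 genes come from the same 4 arrays. Replicate 2 also held the lowest ratio for 6 of 6 and 10 of 15 genes with the processed signals and for 6 of 6 and 11 of 15 with a correction for row and column. With median centring in place of loess, replicate 1 held it for all 21 and for 75.2% of gene names.

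**Figure D3:**
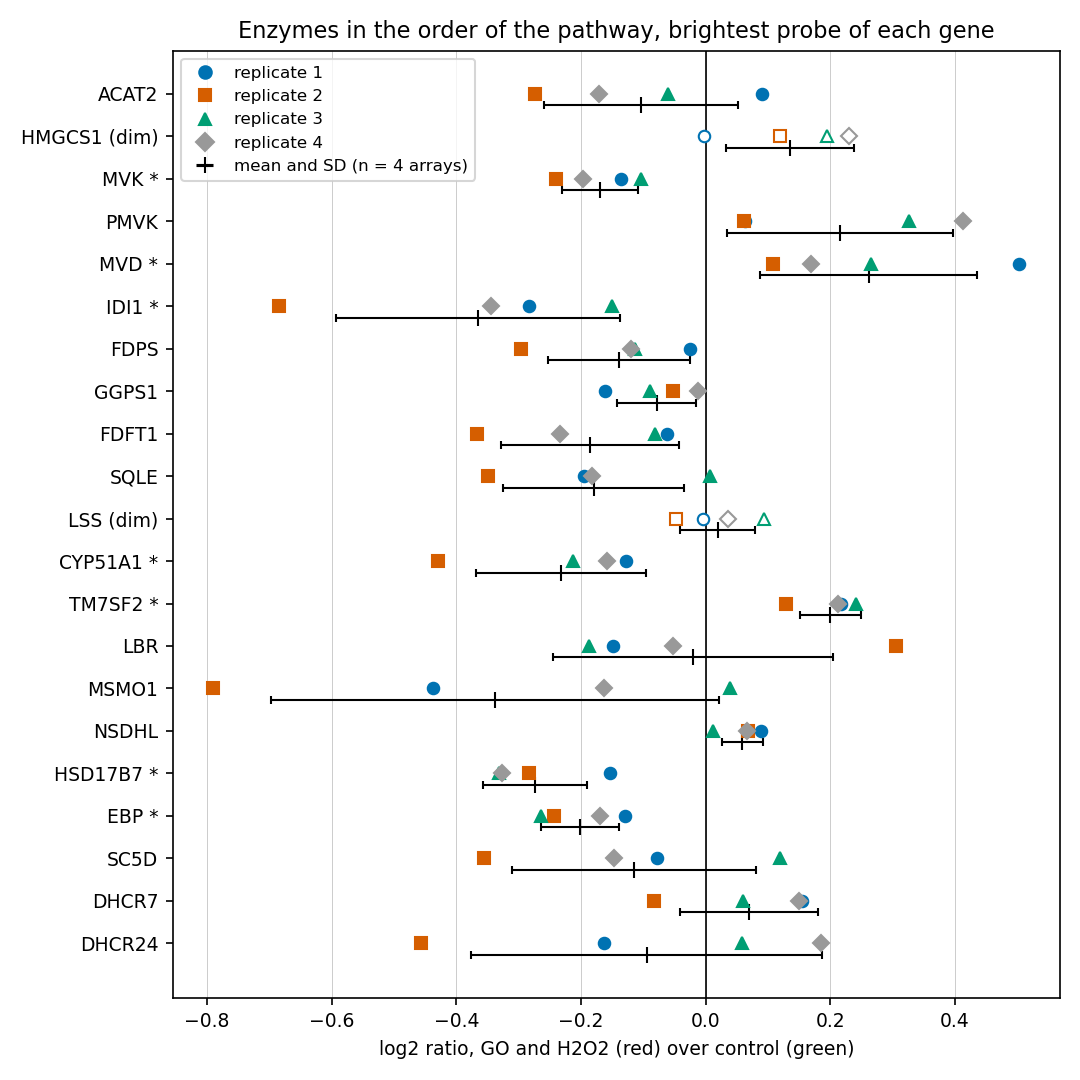
Log2 ratio of treated over control on each array (x axis) for the brightest probe of the enzymes in the order of the pathway (rows), for the members and the other enzymes reported here. Symbols are replicates, black bars are the mean and SD of 4 arrays, open symbols are probes too dim to test, and an asterisk marks an adjusted p under 0.05. Replicate 2 lies furthest left for 14 of the 19 tested genes drawn, with its lowest values in MSMO1 (-0.79) and IDI1 (-0.69).

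The other enzymes changed in both directions. Of 17 such genes, 16 had a probe and 15 were tested, of which 2 rose and 3 fell. In the same fit, 9.93% of gene names were higher and 7.17% lower at 1 probe per name. The median ratio of the 15 genes was -0.079, against 0.0030 over all tested probes. MVD, which makes isopentenyl diphosphate, the substrate of IDI1, rose, with log2 ratios of 0.50, 0.11, 0.26 and 0.17 (mean 0.26 ± 0.17, SD, n = 4, limma adjusted p 0.0462). MVD passed in 6 of 18 alternatives, the fewest of the 5 genes.

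Among the later sterol steps, HSD17B7, a ketosteroid reductase of the pathway, fell, with log2 ratios of -0.15, -0.28, -0.33 and -0.33 (mean -0.27 ± 0.08, SD, n = 4, limma adjusted p 0.0198). EBP, the sterol isomerase, read -0.13, -0.24, -0.26 and -0.17 (mean -0.20 ± 0.06, adjusted p 0.0289) and also fell. CYP51A1, the lanosterol demethylase, found through the probe description, fell on both of its probes. Its brighter probe gave -0.13, -0.43, -0.21 and -0.16 (mean -0.23 ± 0.14, adjusted p 0.0419) and the other a mean of -0.33 (adjusted p 0.0213). TM7SF2, a sterol reductase, rose, with log2 ratios of 0.22, 0.13, 0.24 and 0.21 (mean 0.20 ± 0.05, adjusted p 0.0266). These 4 genes kept their sign on all 4 arrays, and they passed in 13 (HSD17B7), 10 (EBP), 7 (CYP51A1) and 11 (TM7SF2) of 18 alternatives. MSMO1, the sterol methyl oxidase, had the widest spread, with -0.44, -0.79, 0.040 and -0.16 (mean -0.34 ± 0.36, adjusted p 0.105), and did not pass.

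The genes of sterol sensing, uptake and storage passed at about the background rate. Of 21 genes, 20 had a probe, 16 were tested, 1 rose and 1 fell, with a median log2 ratio of -0.033. The shares over all gene names tested were 9.93% higher and 7.17% lower. NR1H2, the sterol receptor LXR beta, rose with ratios of 0.20, 0.17, 0.094 and 0.27 (mean 0.18 ± 0.07, SD, n = 4, limma adjusted p 0.0384). ERLIN1, a protein of the endoplasmic reticulum membrane, fell with -0.21, -0.071, -0.27 and -0.17 (mean -0.18 ± 0.08, adjusted p 0.0422). SCAP, the escort of SREBP-2, had 5 tested probes, all below 0 on 4 of 4 arrays, of which 3 passed. They start at neighbouring bases, from chr16:39492369 to chr16:39492373. The SCAP probes therefore measure nearly the same stretch of the transcript and are not separate evidence. Its brightest probe, which stands for it in the count, read -0.14, -0.20, -0.049 and -0.30 (mean -0.17, adjusted p 0.0610) and did not pass. The 3 that passed had means of -0.16 (adjusted p 0.0422), -0.17 (0.0388) and -0.21 (0.0273), so the call for SCAP depended on the probe. SREBF2, the gene of SREBP-2, read -0.092, 0.11, -0.060 and 0.12 (mean 0.018 ± 0.11, adjusted p 0.824), with arrays on both sides of 0. Its probe was close to background, with scanned red signals of 94.4, 98.3, 82.8 and 91.6 and green signals of 112, 104, 98.7 and 113. It was well above background on 4 arrays in the treated channel but on only 2 in the control channel. The same probe gave 0.15 with the processed signals and 0.12 without background correction, and neither passed. SREBF1, the gene of SREBP-1, was well above background on 2 arrays in the control channel and on 0 in the treated channel and was not tested.

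Among the users of isoprenoids, 15 of 16 genes were tested, 0 rose and 2 fell, with a median of -0.060. Over all gene names tested, 9.93% were higher and 7.17% lower. COQ2, which attaches the isoprenoid tail of ubiquinone, had log2 ratios of -0.45, -0.26, -0.29 and -0.39 (mean -0.35 ± 0.09, SD, n = 4, limma adjusted p 0.0153). ZMPSTE24, a protease that processes prenylated proteins, had ratios of -0.12, -0.25, -0.12 and -0.27 (mean -0.19 ± 0.08, adjusted p 0.0381). Both were lower on all 4 arrays. PGGT1B had 2 tested probes, both lower on all 4 arrays, of which 1 passed. Its brightest probe did not pass, so PGGT1B is not in the count. Without replicate 1, 3 or 4, none of the other enzymes, sensing genes or isoprenoid users passed, and without replicate 2 the counts were 3, 1 and 1.

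Markers of the cells moved in the same samples. Of 11 markers of differentiating satellite cells, 10 were tested and 7 rose, against 9.93% of gene names over the array, with a median of 0.27, and PAX7 was well above background on no array. Summed over these 10 genes, normalised signals were 245380 to 278960 in the treated channels and 192324 to 215780 in the control channels. Of 7 fibroblast markers, 6 were tested, 1 rose (THY1, 0.28) and 1 fell (LUM, -0.43), where 9.93% of gene names were higher and 7.17% lower, and the summed signals were 394583 to 468710 in the treated channels and 326411 to 404175 in the control channels. COL1A1 (0.13, -0.027, 0.68 and 0.19), COL1A2 (0.14, -0.030, 0.60 and 0.50) and COL3A1 (0.098, -0.015, 0.60 and 0.25) had their lowest ratio on replicate 2 and their highest on replicate 3. So had MVK, IDI1, SQLE and INSIG1 (probe 2 for INSIG1), while FDPS and FDFT1 were highest on replicate 1. With the processed signals, 5 of 6 member genes were highest on replicate 3. In the reported fit, 29.8% of gene names were lowest on replicate 2 and 26.6% highest on replicate 3. The share with both was not counted, and a link between the collagens and the sterol genes was not tested. These collagens were singled out after their values were seen. Over the whole marker lists, replicate 2 held the lowest ratio for 4 of 6 tested fibroblast markers, 3 of 10 satellite cell markers and 0 of 3 leukocyte markers. None of the 7 adipocyte or 5 endothelial markers passed the filter, with 5 and 4 of them well above background on no array. Of 5 leukocyte markers, 3 were tested, with summed signals of 18435 to 20530 in the treated channels and 14396 to 16093 in the control channels. CD14 fell (-0.17), CD68 was at 0.0049, and PTPRC rose on its brightest probe (0.53). Of these 3 genes, 1 passed higher and 1 lower, where 9.93% of gene names were higher and 7.17% lower. Of the 15 PTPRC probes, 8 were too dim to test and 7 were tested. Of these, 6 passed, against 17.1% of all tested probes in either direction. Among the tested PTPRC probes, 1 was lower on all 4 arrays, so the direction read for PTPRC depended on the probe. CSF1R and CD3E were well above background on no array. In bulk RNA, fewer cells of a type and less RNA per cell cannot be told apart, and the part of the cell makeup in the ratios of the sterol genes was not tested.

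Genes with the most alike pattern over the 4 arrays were sought among 7878 named genes by Euclidean distance of the log2 ratios. Nearest to IDI1 were CCDC91 (distance 0.242), PLOD2 (0.253) and TLE1 (0.263), all with their lowest ratio on replicate 2. Nearest to INSIG1 were SLIT3 (0.032), RPL4 (0.0333) and ARMC12 (0.0367), whose means lay between -0.012 and 0.015. These genes were chosen for their nearness, so their likeness to IDI1 or INSIG1 follows from the choice.

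**Figure D4:**
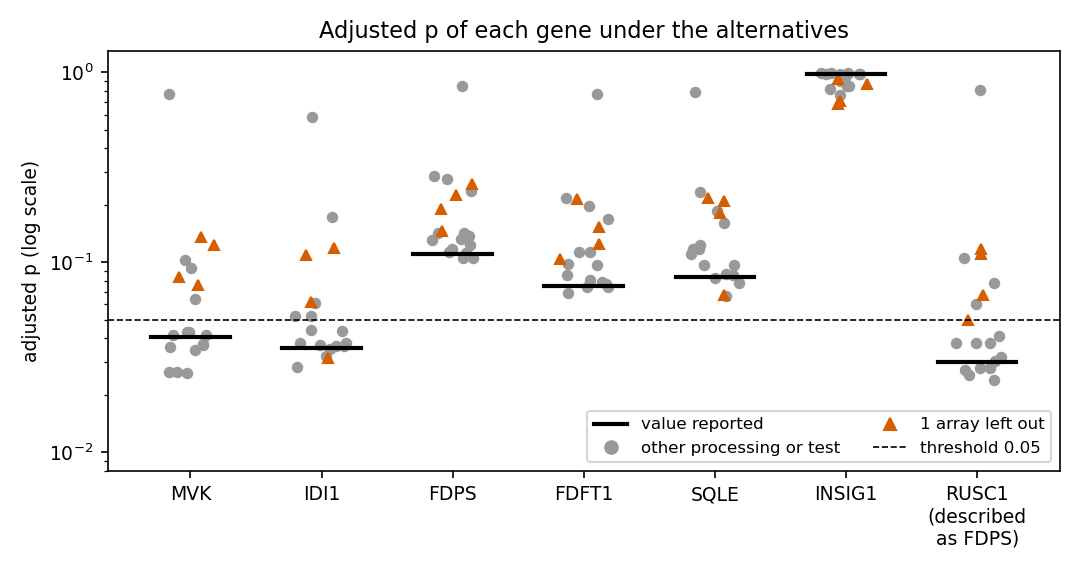
Adjusted p (y axis, log scale) of the brightest probe of each tested gene and of the RUSC1 probe described as FDPS. The black bar is the value reported, grey circles are other processing or tests, orange triangles leave out 1 array, and the dashed line is the threshold of 0.05. MVK and IDI1 lie below the line in the reported fit (0.0404 and 0.0352) and above it in 8 of 19 alternatives each, while FDPS, FDFT1, SQLE and INSIG1 stay above it throughout.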

How the data were processed

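The authors hybridised treated (Cy5) and control (Cy3) RNA on 4 two-colour Agilent horse arrays and extracted spot intensities with Feature Extraction 10.10.1.1, per the file headers. The deposited mean and background intensities are as scanned. The deposited processed intensities had a fitted spatial surface subtracted and dyes normalised, and the deposited log10 ratio is processed red over green. The deposited series matrix holds the same log10 ratios (largest difference 0). Here mean intensities were corrected with normexp (offset 50) and loess within arrays, control spots (1417) having weight 0. Outlier spots (7 to 16 per array) were left out, none was saturated, and spots of a probe were averaged. Well above background were 54.9 to 61.4% of gene spots per channel. Array medians of the log2 ratio were -0.292 to -0.107 before normalisation. Log2 ratios of red over green were tested against 0 with limma 3.58.1 (R 4.3.3). The test was two-sided, and p-values of the 24229 probes were adjusted by Benjamini-Hochberg. Channel values are after loess and Aquantile. The ratio holds the pairing of the channels of an array.

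A gene stands by its brightest tested probe. Text names the 8 members, up to 5 genes past the threshold per list, SREBF1, SREBF2 and SCAP, and the nearest patterns. Some genes counted in the lists are not reported here by name. MSMO1, RUSC1, PGGT1B and the collagen, CD and PTPRC markers were named after their values were seen. Members and lists were chosen with earlier results of these data known. Alternatives changed signal, background correction, normalisation, filter, variance model, weights, test, block, GC content, position and arrays. The processed signals and the series matrix are counted as separate alternatives although they gave the same values. Promoter motifs were not analysed here.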

Additional observations from a re-analysis of the deposited data

How the results depend on the processing

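The whole-array count of 4137 became 12 where median centring replaced loess (12 higher and 0 lower, against 55.6% higher in the reported fit), 5 with the methods' t-test and 594 with no replicate block, that is, without the pairing of the channels of an array, and leaving out 1 array gave 0 to 3898. The single member probe past the threshold (MVK) became 0 with median centring, the methods' t-test, no replicate block, the correction for row and column and every omission of 1 array (0 to 0). It became 2 with IDI1 by description and FDPS by accession added and 3 with both added by description, alternatives chosen after seeing the data. The 5 other enzymes past the threshold became 3 with the processed signals, the series matrix, normexp offset 0, the running median over signal and the row and column correction, 0 with median centring and the t-test, 1 with no replicate block, and 0 to 3 with 1 array left out. The 2 sensing and uptake genes became 0 with median centring, the t-test, no replicate block and GC correction, and 0 to 1 with 1 array left out. The 2 isoprenoid users became 0 with median centring and the t-test, 1 with no replicate block, and 0 to 1 with 1 array left out. MVK lost its call with adjusted p of 0.774 (median centring), 0.103 (t-test), 0.0933 (no replicate block) and 0.0641 (row and column), and IDI1 with 0.582, 0.173 and 0.0612 under the first 3 and 0.0524 with the processed signals and the series matrix. Over 19 alternatives MVK ranged from -0.32 to -0.14 and IDI1 from -0.44 to -0.26. FDPS, FDFT1 and SQLE kept their direction throughout, but FDPS moved to -0.083 with the row and column correction and -0.086 without replicate 2, and the dimmer SQLE probe to -0.032 without replicate 2. Sign changes were seen where the ratio was near 0. With 1 array left out, INSIG1 probe 3 ranged from -0.034 (without replicate 3) to 0.072. INSIG1 probe 1 became 0.028 with the row and column correction and 0.0025 and 0.0086 without replicates 1 and 2 (range with 1 array left out -0.074 to 0.0086). INSIG1 probe 2 became -0.0035 with normexp offset 0, -0.017 with median centring, -0.0098 with the running median, -0.00036 with array weights, and -0.033 and -0.010 without replicates 3 and 4 (range -0.033 to 0.031). SREBF2 became 0.15 with the processed signals and the series matrix, 0.12 without background correction, -0.018 with median centring, -0.021 with the running median, and -0.011 and -0.016 without replicates 2 and 4 (range -0.016 to 0.055). The cause of these changes was not tested. HMGCS1, LSS and SREBF2 were close to background, which limits any statement on them.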
